A study of Mus musculus with 20 samples.

Results

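Hedgehog signaling in gut mesenchyme was followed through 9 genes of the pathway and its forkhead targets, in embryonic and adult gut with and without *Eed*. They are the receptor *Ptch1*, the decoy receptor *Hhip*, the transducer *Smo*, the transcription factors *Gli1*, *Gli2* and *Gli3*, and the forkhead genes *Foxf1*, *Foxf2* and *Foxl1*. These 9 were chosen by symbol from the 43280 genes counted, and each was counted in all 12 RNA-seq libraries and passed the filter on low counts in both the embryonic and the adult libraries. The 8 embryonic libraries came from GFP+ mesenchymal cells of mice given as C57BL/6, at E13.5, sorted from the intestine or the stomach. The study's reporting summary gives mixed strain backgrounds for the Eedfl and Rosa26mTmG lines. Controls were Bapx1-cre;Rosa26mTmG, in which *Cre* under control of the gut mesenchyme gene *Bapx1* turns on membrane GFP, and *Eed* KO embryos were Eedfl/fl;Bapx1-cre;Rosa26mTmG, so that *Cre* and reporter were shared by both genotypes. Each of the 4 embryonic groups had 2 libraries. The 4 adult libraries, 2 WT and 2 EED-KO by their labels, came from GFP+ cells of the adult intestine, and by the study's methods the *Cre* was there the tamoxifen-inducible PdgfrbCre-ERT2. Accessible chromatin was given as 1 list of ATAC-seq peaks for each embryonic group, called on pooled replicates.

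Hedgehog ligands are secreted by the gut epithelium and act on the mesenchyme beneath it. Ligand binding to Ptch1 releases Smo, which turns the Gli factors from repressors into activators. *Gli1*, *Ptch1* and *Hhip* are themselves targets of the pathway, and *Foxf1*, *Foxf2* and *Foxl1* are forkhead transcription factors of the gut mesenchyme that respond to Hedgehog. Eed is a core subunit of Polycomb repressive complex 2 (PRC2), which places the repressive H3K27me3 mark.

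The sequences below are 6 of the 8 places in accessible chromatin near the genes that hold the letters GACCACCCA, a Gli binding motif. Either strand was searched in all peaks within 50000 bp of each gene. The motif stands in capitals with 20 bases on each side, read 5′ to 3′ on the strand of the motif, from the mm10 genome (GRCm38.p6). The first is in the peak at the *Ptch1* start of GENCODE vM4, 133 bp inside that start and between genes in RefSeq (chr13:63573445-63573493, minus strand). The second is in a RefSeq intron of *Ptch1* (chr13:63566415-63566463, plus strand), whose RefSeq start (chr13:63565735) is another one, inside the gene. The third is in an intron of *Gli2* (chr1:118969523-118969571, plus strand). The fourth lies 16621 bp upstream of *Smo* (chr6:29719053-29719101, minus strand). The fifth lies beyond the end of *Hhip*, 121322 bp downstream of its start (chr8:79936664-79936712, minus strand). The sixth lies 42528 bp downstream of the *Foxf2* start (chr13:31668324-31668372, plus strand), and its window also holds the forkhead motif TGTTTAC.
Ptch1 GENCODE start: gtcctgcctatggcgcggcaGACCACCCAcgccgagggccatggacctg
Ptch1 intron: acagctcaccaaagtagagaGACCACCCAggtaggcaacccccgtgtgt
Gli2 intron: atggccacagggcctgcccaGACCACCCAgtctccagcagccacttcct
Smo upstream: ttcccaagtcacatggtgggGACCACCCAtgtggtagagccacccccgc
Hhip downstream: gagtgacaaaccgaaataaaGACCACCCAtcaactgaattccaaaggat
Foxf2 downstream: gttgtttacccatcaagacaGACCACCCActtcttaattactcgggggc

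All 6 of these regions were in all 4 peak lists. At the GENCODE start of *Ptch1* the fold enrichment, the signal of a peak over the MACS2 background, was 3.55 in control intestine, 4.41 in *Eed* KO intestine, 4.03 in control stomach and 4.55 in *Eed* KO stomach. At the RefSeq start of *Ptch1* it was 4.28, 3.78, 4.37 and 2.501 in the same order, for peaks within 1000 bp. In *Eed* KO stomach another peak of that region, further from the start, had a fold of 6.28. The *Eed* KO lists were thus above the controls at the GENCODE start. At the RefSeq start both *Eed* KO lists were below both controls. In *Eed* KO stomach the peak of 2.501 (chr13:63563143-63566633) held that start and the motif, and the peak of 6.28 held neither. By the highest peak of the whole region *Eed* KO stomach was instead above the controls. At the *Hhip* region the fold was 3.48, 3.81, 3.73 and 3.42, and at the *Foxf2* region 3.39, 2.55, 3.57 and 3.04. A further intron site of *Gli2* and a site 43623 bp upstream of *Ptch1* were in the control intestine list alone, with folds of 3.10 and 2.68. In all, 8 of the 195 regions near the 9 genes (4.10%) held the motif, and 0.959% of all 162113 regions did. Regions near the 9 genes were also wider, with a median of 932 bp against 629 bp, and regions with the motif had a median of 1148 bp. A wider region has more places for a motif, and the part of width in the 2 shares was not tested.

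The embryonic libraries held 30236159 to 39606157 counts on genes and the adult libraries 11404712 to 15903642. Embryonic spike-in CPM, scaled to the counts on genes, ran from 720 to 1102 in the controls and from 134 to 404 in the *Eed* KO libraries. *Eed* itself was at 38.1 and 40.1 CPM (counts scaled to library size, after TMM scaling) in control intestine, 10.7 and 8.58 in *Eed* KO intestine, 40.0 and 41.5 in control stomach, and 11.5 and 7.40 in *Eed* KO stomach. It fell by 2.02 and 2.11 on the log2 scale in intestine and stomach (edgeR, adjusted p = 0.0046 and 0.0017). In the adult libraries labelled EED-KO, *Eed* was at 25.6 and 25.0 CPM against 29.7 and 33.4 in the controls, a log2 fold change of -0.32 ± 0.21 (SE, n = 2 per group; edgeR, adjusted p = 0.32). Counts cover the whole gene in embryonic and adult libraries alike, so exons left after recombination can still count. Their part in the adult value was not tested.

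*Foxf1* had the highest mean level per length of the 9 transcripts in each of the 6 groups, though its libraries overlapped those of *Smo* in *Eed* KO stomach and those of *Hhip* in adult *Eed* KO. In control intestine its mean level was 440 TPM (counts per length, scaled to a fixed total), followed by *Smo* at 293, *Ptch1* at 233 and *Foxf2* at 181 TPM. *Gli3* (57.7 TPM) and *Hhip* (55.6 TPM) overlapped in their libraries, as did *Gli2* (27.4 TPM) and *Foxl1* (25.2 TPM), with *Gli1* at 39.8 TPM between these pairs. Control stomach began with the same 4 genes, *Foxf1* at 476, *Smo* at 327, *Ptch1* at 194 and *Foxf2* at 101 TPM, and *Foxl1* was the lowest at 17.3 TPM. Order among neighbours is a description of 2 libraries a group.

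To ask which of the genes differ between the organs, the control intestine was compared with the control stomach. *Foxf2* was higher in the intestine, and no other member passed the test. *Foxf2*, a forkhead factor of the gut mesenchyme, was at 146 and 140 CPM in control intestine and at 74.0 and 82.5 CPM in control stomach. Both intestine libraries were far above both stomach libraries. The log2 fold change was 0.87 ± 0.12 (SE, n = 2 per group; edgeR quasi-likelihood test with Benjamini-Hochberg adjustment, adjusted p = 0.0058), under the fold threshold of 1 on the log2 scale that the study set for differentially expressed genes (DEGs). Its adjusted p was 0.053 without control intestine replicate 1 and 0.058 without control stomach replicate 1, and with spike-in scaling it did not pass, at 1.16 on the log2 scale (edgeR, adjusted p = 0.99).

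*Foxf1*, by contrast with *Foxf2*, was at 372 and 339 CPM in control intestine and at 378 and 379 CPM in control stomach. The log2 fold change was -0.09 ± 0.11 (SE; edgeR, adjusted p = 0.81). *Gli3*, which acts mostly as the repressor of the pathway, was at 172 and 197 CPM in intestine against 131 and 149 CPM in stomach, without passing the test (0.40 ± 0.21 on the log2 scale; edgeR, adjusted p = 0.43). *Foxl1*, a marker of mesenchymal cells next to the epithelium, was at 20.9 and 24.5 CPM in intestine and at 11.3 and 19.6 CPM in stomach. Both intestine libraries of *Gli3* and of *Foxl1* were above both stomach libraries, without passing the test. Of the 9 genes, 0 were DEGs and 1 passed the adjusted p at any fold, against 5.07% and 6.83% of all 16218 genes tested. At an unadjusted p under 0.05 the count was also 1, and DESeq2 called 0 DEGs and passed 1.

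None of the response genes *Ptch1*, *Hhip* and *Gli1* passed the test between the organs. *Ptch1* was at 718 and 641 CPM in control intestine and at 506 and 612 CPM in control stomach, with both intestine libraries above both stomach libraries (0.28 ± 0.18 on the log2 scale; edgeR, adjusted p = 0.55). *Hhip* was at 111 and 71.5 CPM in intestine and at 77.0 and 101 CPM in stomach, and *Gli1* at 47.6 and 49.8 against 42.8 and 61.9 CPM. The stomach libraries of *Hhip* lay inside the intestine range, and those of *Gli1* spanned it. *Smo* was at 375 and 364 CPM in intestine and at 406 in both stomach libraries, a log2 difference of -0.14 ± 0.09 (SE; edgeR, adjusted p = 0.52). *Gli2*, the main activator, varied more between replicates than between organs, at 50.3 and 75.02 against 56.2 and 80.1 CPM.

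**Figure D1:**
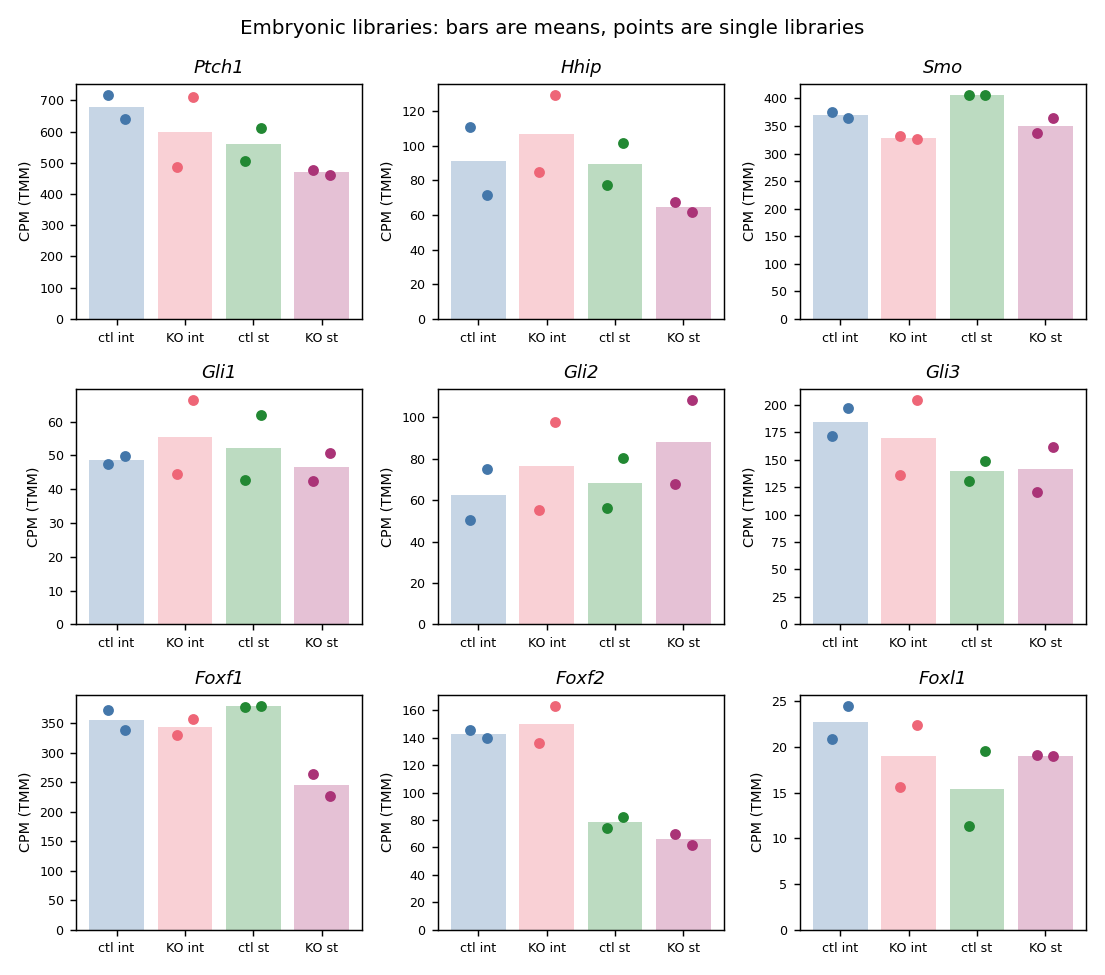
CPM after TMM scaling (y axis, from 0, own scale for each gene) in the 8 embryonic libraries; bars are the mean of 2 libraries and points are single libraries of control (ctl) or Eed KO intestine (int) and stomach (st). Foxf2 stands between 136 and 163 CPM in the 4 intestine libraries and between 62.0 and 82.5 CPM in the 4 stomach libraries, and Foxf1 is lowest in Eed KO stomach.

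Next, the effect of *Eed* deletion was asked in each embryonic organ. In the intestine, none of the 9 genes passed the test, with log2 fold changes from -0.26 to 0.29 and adjusted p from 0.47 to 0.94 (edgeR). The count at an unadjusted p under 0.05 was 0, and DESeq2 called 0, against 2.61% DEGs among all genes tested and 3.06% past the adjusted p at any fold. *Ptch1* was at 487 and 712 CPM in *Eed* KO intestine, *Hhip* at 84.5 and 129 CPM and *Gli1* at 44.4 and 66.3 CPM. Each KO pair was further apart than its control pair and overlapped it. *Foxf1* was at 330 and 357 CPM, *Foxf2* at 136 and 163 CPM and *Foxl1* at 15.6 and 22.4 CPM, again overlapping the controls. *Smo*, at 331 and 326 CPM, was the 1 gene with both KO libraries under both control libraries (-0.17 ± 0.09 on the log2 scale; edgeR, adjusted p = 0.47).

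In the stomach, *Foxf1* fell after TMM scaling, while with spike-in scaling, which raised the median gene, it was higher by 1.72 on the log2 scale. It was at 264 and 227 CPM in *Eed* KO stomach, below the 378 and 379 CPM of the controls and below every other embryonic library. The log2 fold change was -0.62 ± 0.11, a fall of 1.54-fold (SE, n = 2 per group; edgeR, adjusted p = 0.0156), under the fold threshold for a DEG. The call was lost without either control stomach replicate and without *Eed* KO stomach replicate 2, and with each library left out in turn the log2 fold change ran from -0.74 to -0.52. Summed CPM of 7 smooth muscle markers was 1883 to 2143 in *Eed* KO stomach and 2921 to 3034 in control stomach, and that of 7 endothelium markers 26.0 to 48.0 against 14.8 to 15.8. *Acta2* carried most of the smooth muscle sum, at means of 1140 against 1883 CPM. *Actg2* (241 against 401 CPM), *Tagln* (205 against 278 CPM) and *Cnn1* (93.4 against 142 CPM) were also lower. *Des*, at 64.1 against 42.7 CPM, *Myh11*, at 195 against 165 CPM, and *Myocd*, at 74.2 against 66.8 CPM, were higher. Of the 7, 0 were DEGs by edgeR or DESeq2, with 4 at an unadjusted p under 0.05. Fewer cells of a type and less RNA per cell cannot be told apart in bulk libraries, and the part of either list in the *Foxf1* difference was not tested.

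*Foxf1* was alone among the 9 genes in passing the test in the stomach, and 0 were DEGs, against 7.91% and 5.65% of all genes tested. At an unadjusted p under 0.05 there were 2, and DESeq2 also called 0 DEGs and passed 1. *Smo* was at 337 and 365 CPM in *Eed* KO stomach, below both controls (-0.21 ± 0.09 on the log2 scale; edgeR, adjusted p = 0.19). *Hhip* was at 67.6 and 61.5 CPM (-0.46 ± 0.26; adjusted p = 0.35 by edgeR) and *Ptch1* at 478 and 461 CPM (-0.25 ± 0.18; adjusted p = 0.46 by edgeR). Both KO libraries of each lay under both of its controls, by less than the test required. *Foxf2*, at 69.6 and 62.0 CPM, also lay under its controls (-0.25 ± 0.12; adjusted p = 0.27 by edgeR), and *Foxl1*, at 19.1 and 19.0 CPM, lay within them. *Gli1*, *Gli2* and *Gli3* were at 42.5 and 50.7, 67.6 and 108, and 121 and 162 CPM, and each overlapped its controls. How many of all genes lay wholly under their controls in the stomach was not counted, so no common fall is read from these separations.

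These values are relative to all genes in a library. Scaling to the spike-in RNA instead, of which the *Eed* KO libraries held a smaller share, moved the median of all genes up by 1.85 in the intestine and by 2.39 in the stomach on the log2 scale. In either organ all 9 genes were then DEGs, all higher in *Eed* KO. So were most genes, 13664 in the intestine and 15419 in the stomach of the 16218 tested. Relative to that shift, the 9 genes ran from -0.17 (*Smo*) to 0.48 (*Gli2*) in the intestine. In the stomach, *Foxf1* stood at -0.66, *Hhip* at -0.50 and *Gli2* at 0.48 relative to the median gene.

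Between *Eed* KO intestine and *Eed* KO stomach, *Foxf2* was a DEG, at 1.18 ± 0.12 on the log2 scale (SE, n = 2 per group; edgeR, adjusted p = 0.0024). It stayed a DEG with each library left out, from 1.05 to 1.31, and was not called with spike-in scaling, at 1.03 (edgeR, adjusted p = 1). *Foxf1* was also higher in the KO intestine, by 0.49 ± 0.11 (edgeR, adjusted p = 0.041), and this call was lost whichever of the 8 libraries was left out. *Hhip* was at 84.5 and 129 CPM in KO intestine against 67.6 and 61.5 CPM in KO stomach (0.73 ± 0.26; adjusted p = 0.18 by edgeR). The count of members was 1 DEG and 2 past the adjusted p, where 4.4% and 6.33% of all genes were. Over the same libraries, 4 of 7 smooth muscle markers were DEGs higher in KO intestine, among them *Actg2* (1.31), *Des* (1.27), *Tagln* (1.20) and *Cnn1* (1.07 on the log2 scale), and their part in the *Hhip* and *Foxf1* differences was not tested.

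Whether *Eed* deletion changed the organ difference was tested as an interaction, the intestine minus stomach difference in controls minus that in *Eed* KO. No member was past the study's thresholds for it, an adjusted p under 0.2 and a log2 difference above 1 in size, where 0.462% of all genes were. *Foxf1* had the lowest p, with a log2 difference of -0.58 ± 0.15 (edgeR, unadjusted p = 0.0058, adjusted p = 0.43). It was the 1 member at an unadjusted p under 0.05 and the 1 that passed the adjusted p with DESeq2 (0.18), under the fold threshold. *Hhip* had the largest size, at -0.69 ± 0.37 (edgeR, adjusted p = 0.995).

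**Figure D2:**
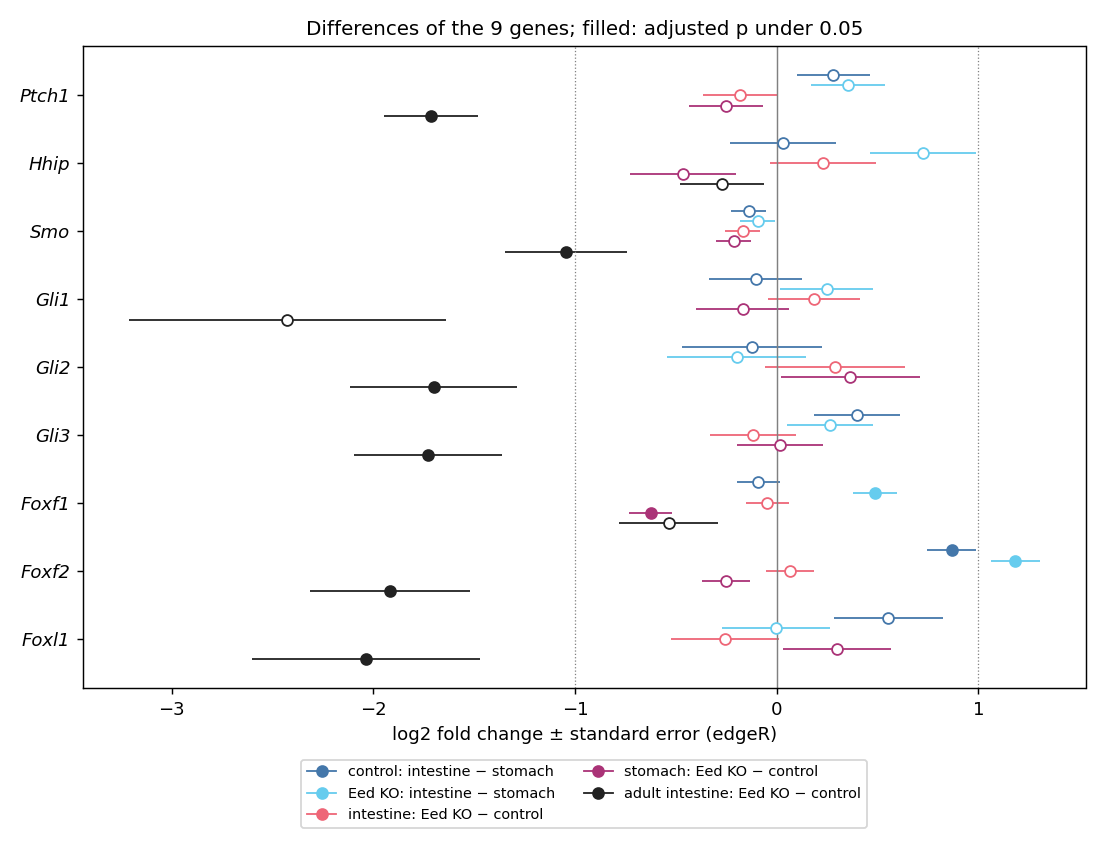
Log2 fold change (x axis) with its standard error (bars) from edgeR for the 9 genes in 5 comparisons; filled points have an adjusted p under 0.05 and dotted lines mark 1 and -1. Only Foxf1 and Foxf2 have filled points in the embryonic comparisons, while in the adult comparison the points of 6 genes are filled and below -1.

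In the adult intestine, 6 of the 9 genes were DEGs and lower in the libraries labelled EED-KO after TMM scaling (0 with scaling to mesenchyme markers), where 7.23% of all 15039 genes tested were DEGs lower. All 9 genes had both KO libraries under both controls, as 33% of all genes did. The receptor *Ptch1* was at 66.2 and 54.5 CPM in the controls and at 20.8 and 16.0 CPM in the KO. All 4 libraries kept the groups well apart. *Ptch1* fell by 1.72 ± 0.23 on the log2 scale (SE, n = 2 per group; edgeR, adjusted p = 0.0028).

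*Smo*, the transducer that Ptch1 holds in check, was at 19.6 and 24.1 CPM in the controls and at 12.7 and 8.49 CPM in the KO (-1.04 ± 0.30; edgeR, adjusted p = 0.046). *Gli2* was at 10.0 and 10.98 CPM against 2.30 and 4.09 CPM (-1.70 ± 0.42; edgeR, adjusted p = 0.026). *Gli3* was at 24.2 and 13.497 CPM against 5.91 and 5.48 CPM (-1.73 ± 0.37; edgeR, adjusted p = 0.016). None of the 3 overlapped between groups, and the control libraries of *Gli3* were further apart than its KO libraries.

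Among the forkhead genes, *Foxf2* was at 26.2 and 14.8 CPM in adult controls and at 4.21 and 6.56 CPM in the KO, and it fell by 1.92 ± 0.40 on the log2 scale (SE; edgeR, adjusted p = 0.014). *Foxl1* was at 3.73 and 3.78 CPM against 0.801 and 1.00 CPM, from 51 and 54 counts against 8 and 13, and it fell by 2.04 ± 0.56 (SE; edgeR, adjusted p = 0.040). *Foxf1* was at 52.1 and 44.8 CPM against 26.9 and 39.8 CPM and did not pass the test (-0.54 ± 0.25; edgeR, adjusted p = 0.16). The lower *Foxf1* control and the higher KO library were close, and the KO libraries were the further apart of the 2 pairs.

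The other 2 genes that did not pass were *Gli1* and *Hhip*, both response genes. *Gli1*, the most direct transcriptional readout of the pathway, was at 3.51 and 6.01 CPM in the controls and at 1.502 and 0.309 CPM in the KO, from 48, 86, 15 and 4 counts. Its log2 fold change was the largest in size, at -2.43, with the widest error, 0.79 (SE; edgeR, adjusted p = 0.066). *Hhip* was at 62.3 and 70.2 CPM against 62.2 and 47.8 CPM (-0.27 ± 0.21; edgeR, adjusted p = 0.39), and the lower control and the higher KO library were nearly level.

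The adult counts of DEGs leaned on single libraries. Without control replicate 1 the DEGs among the members numbered 1 and without control replicate 2 they numbered 3, against 5 without KO replicate 1 and 4 without KO replicate 2. DESeq2 called 7 of the 9. With the adult spike-in RNA as the scale, the median of all genes moved by -0.42 on the log2 scale and 7 members were DEGs.

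Cell markers moved with the adult comparison too. Summed CPM of the 6 leukocyte markers counted was 2639 to 3446 in the controls and 88894 to 100056 in the KO, with 5 of 6 DEGs higher, *Cd68* (5.10), *Cd74* (5.08), *Csf1r* (4.99), *Lyz2* (4.13) and *Ptprc* (4.04 on the log2 scale), and *Cd79a* lower (-1.23). Summed mesenchyme markers were 22260 to 24709 CPM in the controls and 12237 to 13010 CPM in the KO, and 4 of 8 were DEGs lower, among them *Pdgfra* (-1.79), *Col1a1* (-1.65) and *Col3a1* (-1.60). Pericyte markers were at 11445 to 13320 against 3157 to 4409 CPM, with 3 of 5 DEGs lower, and smooth muscle markers at 1839 to 2280 against 3169 to 3733 CPM, with 3 of 7 DEGs higher. The sort was for GFP+ cells, and the leukocyte genes were at high levels in it. The part of these markers in the fall of the members was not tested.

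For every 1000 counts of *Pdgfra*, a gene of fibroblasts chosen for this ratio after its values were seen, *Ptch1* had 57.5 and 59.6 counts in adult controls and 63.7 and 59.4 in the KO. By this ratio *Ptch1* was nearly level over the 4 libraries. *Gli2* had 8.70 and 12.002 against 7.05 and 15.2, *Gli3* 21.1 and 14.8 against 18.1 and 20.4, *Foxf2* 22.8 and 16.1 against 12.9 and 24.4, and *Foxl1* 3.24 and 4.13 against 2.45 and 3.73. All 4 of these overlapped between the groups, as did *Gli1*. *Hhip* had 54.1 and 76.8 against 190.3 and 178, *Smo* 17.0 and 26.3 against 38.9 and 31.6, and *Foxf1* 45.3 and 49.0 against 82.4 and 148. By this ratio both KO libraries of these 3 genes were above both controls. The ratio to the summed mesenchyme markers gave another picture. In CPM of the summed marker counts in place of the library, *Ptch1* was at 2973 and 2208 in the controls and at 1601 and 1305 in the KO, still lower without overlap, as were *Gli1*, *Gli2*, *Gli3*, *Foxf2* and *Foxl1*. *Smo*, at 879 and 974 against 978 and 694, and *Foxf1*, at 2340 and 1814 against 2071 and 3254, overlapped. *Hhip*, at 2799 and 2842 against 4781 and 3903, was higher in the KO by both ratios. Scaled to the summed mesenchyme markers in edgeR, an alternative also chosen after the data were seen, 0 of the 9 were DEGs. With this scaling 2 members passed the adjusted p at any fold. *Hhip*, 1 of these, was higher in the KO by 0.62 on the log2 scale (edgeR, adjusted p = 0.039).

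**Figure D3:**
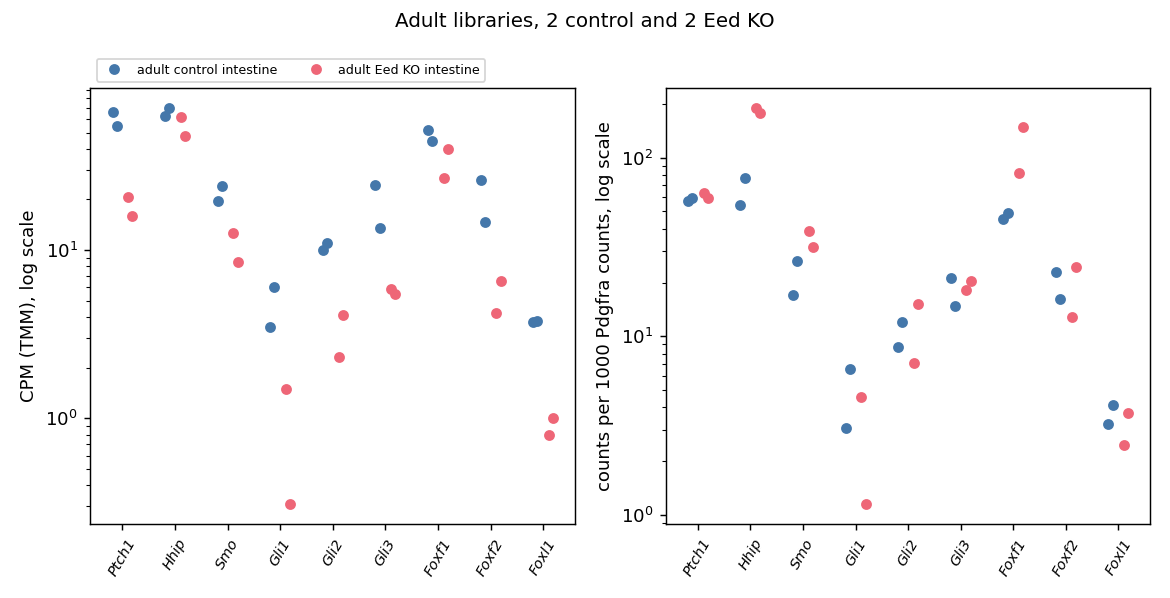
The 9 genes in the 4 adult libraries, on log scales, as CPM after TMM scaling (left) and as counts for every 1000 counts of Pdgfra (right); points are single libraries. On the left all 9 genes lie lower in Eed KO, and on the right Ptch1 stands between 57.5 and 63.7 in all 4 libraries while Hhip, Smo and Foxf1 lie higher in Eed KO.

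**Figure D4:**
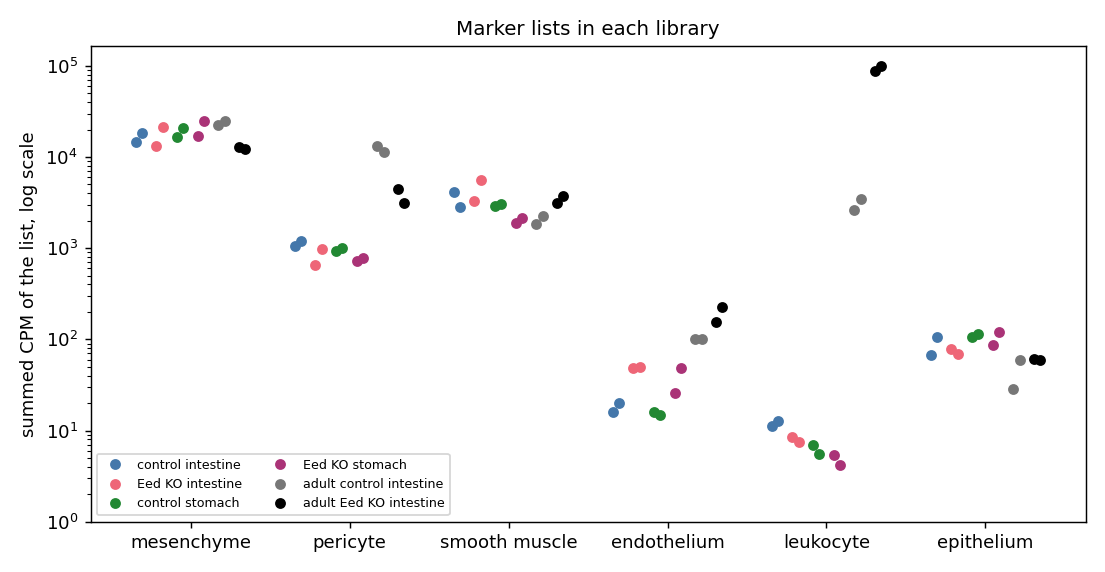
Summed CPM (y axis, log scale) of 6 lists of cell type markers in each of the 12 libraries; points are single libraries. Leukocyte markers stand at 88894 to 100056 in adult Eed KO against 2639 to 3446 in adult controls, and mesenchyme and pericyte markers are lower there.

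The order of the members also differed with age, by values set side by side and without a test, since embryonic and adult libraries were made with different kits and *Cre* lines. *Hhip* stood next after *Foxf1* in adult controls, at 34.7 against 51.6 TPM, ahead of *Foxf2* at 22.4 TPM, while in the embryonic control intestine it stood below *Smo*, *Ptch1* and *Foxf2*. *Ptch1* was at 17.8 TPM in adult controls and 233 TPM in the embryonic intestine, *Smo* at 14.8 against 293 TPM, and *Gli1* at 3.33 against 39.8 TPM. *Gli1* had the lowest mean of the 9 in both adult groups, overlapping *Foxl1*.

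The rest of the pathway was read from gene lists. Of 9 ligand and ligand-release genes, 8 were tested in the embryonic libraries, and 2 were DEGs in *Eed* KO stomach, both higher. *Scube1*, which helps release lipid-bound ligand, was at 21.2 and 32.9 CPM against 8.43 and 6.91 CPM (1.82 on the log2 scale; edgeR, adjusted p = 0.04). *Disp2*, a relative of the ligand exporter Dispatched, was near 1 CPM (1.70; edgeR, adjusted p = 0.035). In the intestine 0 were DEGs by edgeR, with 6 at an unadjusted p under 0.05 and 1 by DESeq2. *Shh*, the ligand of the epithelium, had 1 to 46 counts in the embryonic libraries and 0 in the adult ones. At these low counts its mean was 0.366 CPM in *Eed* KO intestine, against 0.0449 CPM in the controls of that organ. The stomach means were 0.979 CPM for *Eed* KO and 0.184 CPM for the controls. In TPM both KO libraries lay above both controls in either organ, without *Shh* being a DEG by edgeR. *Scube1* fell in the adult KO by 2.53 (edgeR, adjusted p = 9e-04), from 83.6 and 82.6 to 17.6 and 11.2 CPM.

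Among 6 further receptors and co-receptors, 0 were DEGs upon *Eed* deletion in either embryonic organ by edgeR or DESeq2, and 1 in the intestine and 2 in the stomach had an unadjusted p under 0.05. The 2 in the stomach were the ligand-binding co-receptors *Boc* (52.6 and 49.8 against 74.8 and 92.8 CPM) and *Cdon* (291 and 257 against 373 and 441 CPM), which rose by 0.71 and 0.57 on the log2 scale (edgeR, adjusted p = 0.045 and 0.043). *Boc* and *Cdon* were higher in the libraries in which *Foxf1* was lower. In the adult KO 0 of the 5 tested were DEGs by edgeR, with 2 at an unadjusted p under 0.05 and 1 DEG by DESeq2. Of 25 transducers and regulators tested, 0 were DEGs upon *Eed* deletion in either embryonic organ by edgeR or DESeq2, with 0 in the intestine and 1 in the stomach at an unadjusted p under 0.05. In the adult KO, 4 of the 25 were DEGs lower, the cilium genes *Gpr161* (-1.67), *Evc2* (-1.48), *Tulp3* (-1.44) and *Evc* (-1.23), and 2 higher, *Arrb2* (2.84) and *Adrbk1* (1.78 on the log2 scale). The median of the list was -0.47 there, and 7.23% of all genes were DEGs lower and 12.3% higher. With scaling to mesenchyme markers the list turned, with 6 DEGs higher, 0 lower and a median of 0.41. With the RUVg factor, which removes variation seen in the spike-in RNA, 2 were higher and 1 lower, and with 1 library left out 2 were higher and 1 to 3 lower.

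Of 13 other genes taken as Hedgehog targets, *Ccnd1*, which drives entry into the cell cycle, rose in both embryonic organs. It was at 90.5 and 56.6 CPM in control and 214 and 261 CPM in *Eed* KO intestine (1.69 on the log2 scale; edgeR, adjusted p = 0.012), and at 89.2 and 114 against 201 and 208 CPM in the stomach (1.01; edgeR, adjusted p = 0.037). *Tbx2*, a T-box repressor, rose in the stomach by 1.58 (edgeR, adjusted p = 0.011), and *Osr1* rose there by 0.94 (edgeR, adjusted p = 0.019). The list medians were -0.05 (intestine) and -0.25 (stomach), and 0 of the 13 were DEGs in the stomach without either control stomach replicate and in the intestine without control intestine replicate 2. In the adult KO 5 of 12 tested were DEGs, all lower, with a list median of -1.14, against 7.23% of all genes. With scaling to mesenchyme markers 1 was higher and 1 lower, with a median of -0.24. The 5 DEGs after TMM scaling were *Bmp4* (-1.98), *Wnt5a* (-1.51), *Sfrp1* (-1.34), *Rab34* (-1.27) and *Osr1* (-1.01 on the log2 scale). *Bmp4*, a signal of the mesenchyme to the epithelium, was at 635 and 658 CPM against 214 and 114 CPM. The study reported the opposite direction for *Bmp4*, a rise upon adult PRC2 loss, and a fall of *Wnt5a*. It used DESeq2 on counts normalized to the spike-in RNA by RUV-seq. Here DESeq2 with 1 RUVg factor called 0 of the list higher and 5 lower, and spike-in scaling called 0 higher and 7 lower. The source of the difference from the study was not tested.

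Several other forkhead genes rose upon *Eed* deletion in the embryo. Of 41 other forkhead genes, 27 were tested, and 6 in the intestine and 7 in the stomach were DEGs upon *Eed* deletion, all higher, against 2.38% and 4.84% of all genes higher. The list medians were 0.39 and 0.54 on the log2 scale, but -0.03 and 0.09 with the RUVg factor, where 6 were higher and 1 lower in each organ. The intestine count was 4 without either control intestine replicate. Spike-in scaling called 25 and 27 higher, where it called 13664 and 15419 of all 16218 genes higher. In the same libraries, 3 of 7 endothelium markers in the intestine and 5 of 7 in the stomach were DEGs higher, with summed CPM of 48.1 to 49.7 against 16.0 to 20.1 in the intestine. Of 7 epithelium markers 0 were DEGs in either organ by edgeR, with 3 in each at an unadjusted p under 0.05 and 2 by DESeq2. Their summed CPM did not rise as a whole, at 87.7 to 120 in *Eed* KO stomach against 106 to 114 in control stomach. Within that list *Cdh1* was at means of 3.62 against 1.03 CPM and *Cldn7* at 1.60 against 0.3203 CPM in the stomach. The part of these markers in the forkhead values was not tested. *Foxd1* was at 0.253 and 0.101 CPM in control and 6.67 and 9.50 CPM in *Eed* KO intestine (5.44 on the log2 scale; edgeR, adjusted p = 0.0021), and at 0.145 and 0.0765 against 11.7 and 18.0 CPM in the stomach (7.05; edgeR, adjusted p = 4e-04). *Foxd2* (4.63 and 5.26), *Foxa1* (3.67 and 4.31), *Foxc1* (3.32 and 3.71) and *Foxc2* (2.96 and 3.20) also rose in both organs. Summed over the controls of intestine and of stomach, *Foxd1* had 12 and 8 counts, *Foxd2* 7 and 10, and *Foxa1* 5 and 25. Genes this low in controls could pass the low-count filter through the *Eed* KO libraries alone, and then only as higher. This bears on the counts of DEGs and on the list medians. *Foxl2* in the stomach had 0 against 10 and 18 counts, at least 9.33-fold higher. In the adult comparison 0 of 15 tested were DEGs by edgeR and by DESeq2, with 2 at an unadjusted p under 0.05, and 3 were higher with scaling to mesenchyme markers.

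Some of these genes are neighbours of the members. *Foxf1* (chr8:121084386-121088144), *Foxc2* (chr8:121116171-121118895) and *Foxl1* (chr8:121127940-121130644) lie on the plus strand of mm10, with starts 31.8 kb apart and then 11.8 kb apart. *Foxc2* between them was at 0.253 and 0.471 CPM in control and 2.48 and 3.11 CPM in *Eed* KO intestine, and at 0.898 and 1.02 against 8.31 and 9.38 CPM in the stomach. It rose in both organs (edgeR, adjusted p = 0.0047 and 9e-04), while *Foxl1* passed the test in neither and *Foxf1* fell in the stomach. *Foxf2* (chr13:31625816-31631403) has *Foxc1* 181 kb downstream, start to start. *Foxc1* was at 0.281 and 0.740 against 4.93 and 5.08 CPM in the intestine and at 1.16 and 1.33 against 16.0 and 16.6 CPM in the stomach, where *Foxf2* did not pass the test.

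*Fendrr*, a long noncoding RNA on the minus strand, starts 1276 bp from the start of *Foxf1* and runs away from it (chr8:121054882-121083110). It was at 31.6 and 29.3 CPM in control intestine and 19.3 and 21.1 CPM in control stomach, and at 27.1 and 28.3 against 19.5 and 17.9 CPM in *Eed* KO. Its organ difference passed the test in both genotypes (0.59 and 0.56 on the log2 scale; edgeR, adjusted p = 0.018 and 0.025), which that of *Foxf1* did in *Eed* KO alone. Upon *Eed* deletion *Fendrr* did not pass in the stomach, where *Foxf1* fell (-0.11 ± 0.11; edgeR, adjusted p = 0.60). In the adult KO it fell by 1.14 (edgeR, adjusted p = 0.035).

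Every one of the 9 members had an ATAC-seq peak within 1000 bp of its annotated start in all 4 lists, as did 87.0% of the tested genes. The folds of all 9 lay below the median promoter in each list, with *Smo* in control intestine nearest to it. The peaks of the members were 991 to 4054 bp wide, against medians of 1103 to 1208 bp over tested genes. The part of width in the folds was not tested. The median best fold over tested genes with a peak was 6.91, 6.46, 6.80 and 6.69 in control intestine, *Eed* KO intestine, control stomach and *Eed* KO stomach. *Smo* came closest, with 6.52, 5.57, 6.34 and 5.71. *Foxf1* had 4.3995, 3.70, 4.26 and 3.73, and its peak also covered the start of *Fendrr*. *Foxf2* was among the lowest, with 3.14, 2.75, 2.92 and 2.58. Peaks have no replicate values, so no difference in fold was tested.

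*Foxl1* had the most uneven promoter by the highest peak within 1000 bp. Its fold was 4.47 in control intestine and 5.48 in *Eed* KO stomach, against 2.16 in *Eed* KO intestine and 2.04 in control stomach, with -log10 q of 38.4, 62.3, 4.05 and 2.83. In control intestine the peak was 1 piece of 3538 bp (chr8:121125321-121128858), while in *Eed* KO intestine and control stomach the caller gave a separate upstream peak more than 1000 bp from the start, with folds of 6.10 and 8.19. In *Eed* KO stomach the peak of 5.48 ended upstream of the start (chr8:121125017-121127516), and a second peak past the start had a fold of 2.38. Within 5000 bp the highest fold was thus in control stomach. The part of how the caller joined peaks was not tested. With a -log10 q of at least 5, *Foxl1* lacked a promoter peak in these 2 lists and 8 of the 9 genes had one in all 4.

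**Figure D5:**
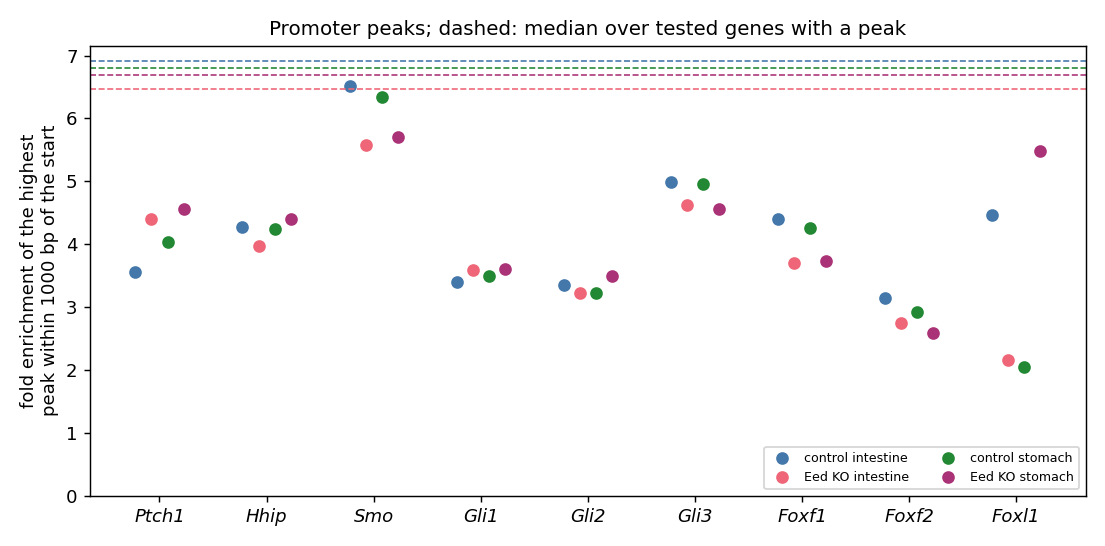
Fold enrichment (y axis) of the highest ATAC-seq peak within 1000 bp of the start of each of the 9 genes in the 4 embryonic peak lists, 1 point a list; dashed lines are the medians over tested genes with a peak, 6.46 to 6.91. Foxl1 spans 2.04 to 5.48, and the other genes keep closer values across the 4 lists.

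Of the members, 6 had a RefSeq promoter sequence (250 bases before to 50 after the start, GRCm38.p6), which were *Gli2*, *Gli3*, *Ptch1*, *Hhip*, *Smo* and *Foxf2*. They had 67.3% to 76.3% GC and 17 to 47 CpG dinucleotides, against medians of 52.7% and 7 over all promoters. The *Ptch1* sequence is that at the RefSeq start, not at the GENCODE start with the motif shown above. None of the 6 held GACCACCCA or TGTTTAC on either strand, as 0.253% and 3.65% of 32851 promoters do. The promoter of *Foxf2*, the gene that differed between the organs, is shown with its CpG dinucleotides in capitals (chr13:31625566-31625865, plus strand).
Foxf2 promoter: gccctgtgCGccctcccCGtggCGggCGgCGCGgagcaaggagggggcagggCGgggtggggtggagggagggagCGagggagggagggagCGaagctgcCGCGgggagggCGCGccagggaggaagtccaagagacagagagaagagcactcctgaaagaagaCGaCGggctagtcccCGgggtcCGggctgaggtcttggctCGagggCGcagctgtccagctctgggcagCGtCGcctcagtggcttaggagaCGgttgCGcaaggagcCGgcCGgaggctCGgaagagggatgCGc

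Patterns over the 8 embryonic libraries were compared by Pearson's r of log2 CPM over 13385 genes, as a description, since the libraries share depth, organ and genotype. The genes most like *Foxf2* were *Aldh1a1* (0.99), *Glipr2* and *C030037D09Rik*, and those most like *Foxf1* were *P2ry1* (0.98), *Spsb4* and *Rtn4*. *Ptch1* was most like *Nol10* (0.98), *Trak2* and *Clasp2*, *Hhip* like *Pik3c2b* (0.97), *Smad4* and *Cnn1*, and *Smo* like *Tspyl4* (0.99), *Slc39a9* and *Jade1*. *Gli1* was most like *Akt1* (0.96), *Ppp1r16a* and *2810430I11Rik*, *Gli2* like *Bcorl1* (1.00), *Gramd1b* and *Col16a1*, *Gli3* like *Fbn2* (0.99), *Gpr124* and *Lamb1*, and *Foxl1* like *Gm21769* (0.93), *2610005L07Rik* and *Serhl*. Within the 9, *Ptch1* was most like *Hhip* (0.80), then *Gli3* (0.76) and *Foxf2* (0.74), while *Smo* reached at most 0.36 with any of the others.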

How the data were processed

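RNA-seq covered 8 embryonic and 4 adult mouse libraries, and ATAC-seq the 4 embryonic groups. Embryonic RNA libraries were stranded and poly(A)-selected, and adult libraries were unstranded, from a low-input kit. Per the submitters' processing notes, reads went through bcl2fastq 2.17, Trimmomatic 0.32, STAR 2.5.1b on mm10 and featureCounts, named as 2.5.0 there and 1.5.0 in the file headers. The authors deposited unnormalized counts per gene (GENCODE vM4) with 99 spike-in transcripts. ATAC-seq reads were aligned with BWA 0.7.8 and replicates pooled. Each deposited peak has a fold enrichment over background and a −log10 q, which the authors took from MACS2 2.1.2. Peak lists hold no read counts, so their counting error was not computed.

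Counts were tested with the quasi-likelihood test of edgeR 4.0.16 (R 4.3.3) after TMM scaling and filterByExpr, in 1 fit of the 8 embryonic libraries and 1 of the 4 adult libraries, with adjustment over all genes tested (16218 and 15039). DEGs had to pass both an adjusted p of 0.05 and 1 unit of log2 fold change in either direction, with an adjusted p of 0.2 for interactions. The biological coefficient of variation was 15.8% and 29.1%, and 3 counts came to at most 0.0992 CPM in embryonic and 0.263 CPM in adult libraries. An exact permutation test of 2 against 2 cannot go below p = 0.333 (two-sided), so none was run. Which intestine and stomach libraries share embryos is not given in the sources used here, and p-values measure the spread between these samples. TPM used exon lengths from the tables and no TMM factor.

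A promoter was 1000 bp each side of the annotated start. Motifs were searched on both strands of the reference. The procedure was tested on simulated data. Alternatives were DESeq2 1.42.0, its size factors in edgeR, spike-in scaling, 1 RUVg factor, no filter, a replicate block and each library left out, with 2 added after the data were seen, scaling to mesenchyme markers and RefSeq starts. Named genes were the 9 members, *Eed*, DEGs of the gene lists in each comparison, up to 4 further list genes of high level, and the 3 genes most like each member. The values of 1 list gene are not reported here. The members and lists were chosen with earlier results of these data known.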

Additional observations from a re-analysis of the deposited data

Results flagged for a closer look

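The libraries of *Foxf1* were ordered differently between the organs in control and in *Eed* KO. On the log2 scale, intestine minus stomach was -0.09 in control and 0.49 in *Eed* KO, a difference of -0.58 between them. Both control intestine libraries (372 and 339 CPM) lay under both control stomach libraries (378 and 379 CPM), and both *Eed* KO intestine libraries (330 and 357 CPM) lay above both *Eed* KO stomach libraries (264 and 227 CPM). The test of the difference itself gave a log2 difference of -0.58 ± 0.15 (edgeR, unadjusted p = 0.0058, adjusted p = 0.43), and the control difference did not pass on its own (adjusted p = 0.81 by edgeR). With spike-in scaling the organ differences were 0.21 and 0.31, both above 0, and relative to the shift of all genes they were -0.08 and 0.56. Summed smooth muscle markers were 2823 to 4140 CPM in control intestine and 2921 to 3034 CPM in control stomach, against 3320 to 5668 and 1883 to 2143 CPM in the *Eed* KO organs, and their part in the *Foxf1* values was not tested.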

How the results depend on the processing

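Over the log2 fold changes of the 9 genes in all comparisons and alternatives, 656 kept their side of the adjusted p threshold, 34 passed it where the reported fit did not, 38 no longer passed it and 1 reversed. The reversal was *Foxf1* in *Eed* KO stomach with spike-in scaling, at 1.72 (edgeR, adjusted p = 0.037), below the shift of 2.39 of all genes. With the adjusted p alone, the members called were 1 for the organ difference in controls, 1 for *Eed* KO stomach and 2 for the organ difference in *Eed* KO, against 0, 0 and 1 DEGs. Spike-in scaling gave 9 in *Eed* KO intestine, 9 in *Eed* KO stomach and 0 between the *Eed* KO organs, with shifts of all genes of 1.85, 2.39 and -0.24. It called 13664 of all 16218 genes higher in *Eed* KO intestine and 15419 in *Eed* KO stomach. Its shifts were 0.30 between the control organs, 0.53 in the interaction and -0.42 in the adult comparison. The 6 adult DEGs became 1 to 5 with 1 library left out, 4 with the replicate block, 4 with the RUVg factor, 7 with DESeq2, without a filter and with spike-in scaling, and 0 with scaling to mesenchyme markers, which moved the median of all genes by 0.89.

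The interaction of *Foxf1* had an adjusted p of 0.18 with DESeq2, 0.18 without a filter, 0.049 with the RUVg factor and 0.066 with the replicate block, each under the fold threshold. Replicate deviations correlated at 0.340 over the organs in controls and at 0.714 in *Eed* KO, at 0.104 to 0.240 across genotypes and at -0.073 in the adult groups, and the labels do not say that a number marks shared embryos. With the block, *Gli3* (0.40) and *Foxl1* (0.59) also passed between the control organs, *Gli2* (-0.21) and *Gli3* (0.25) between the *Eed* KO organs, and *Smo* and *Foxl1* no longer passed in the adult comparison. Promoter peaks in all 4 lists numbered 9 with a window of 5000 bp, with an overlap of 200 bp and from RefSeq starts, and 8 at a −log10 q of at least 5.

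With 2 libraries a group, the embryonic fit rests on 4 residual degrees of freedom. The adult values of *Gli1* and *Foxl1* rest on 4 to 86 counts a library.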

Other observations

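Other marker lists bear on which cells the libraries hold. Endothelium markers, 7 genes, were DEGs higher in *Eed* KO intestine for 3 and in *Eed* KO stomach for 5, and 4 were DEGs higher in control intestine than in control stomach. Their summed level was 16.0 to 20.1 CPM in control intestine and 48.1 to 49.7 CPM in *Eed* KO intestine. Leukocyte markers summed to 4.22 to 12.7 CPM in the embryonic libraries. Of the 7 epithelium markers, 0 were DEGs in either embryonic *Eed* KO organ or in the adult KO by edgeR, with 3, 3 and 0 at an unadjusted p under 0.05 and 2, 2 and 0 DEGs by DESeq2. Of the 7 enteric neural crest markers 1 was a DEG in *Eed* KO stomach, higher. Of the 5 mesothelium markers 0 were DEGs upon *Eed* deletion in either embryonic organ by edgeR or DESeq2, with 1 and 3 at an unadjusted p under 0.05. Of the 5 erythroid markers tested 0 were DEGs in either organ by edgeR, with 1 and 3 at an unadjusted p under 0.05 and 0 and 1 DEGs by DESeq2.

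Sharing of accessible regions near the 9 genes between the organs and genotypes was counted without a test. Of the 195 regions within 50000 bp, 114 (58.5%) were in all 4 lists, and 46.0% of all regions were. Those in the control intestine list and not in the control stomach list made up 7.18% against 9.88%, those in control stomach and not in control intestine 11.8% against 17.2%, and those in the *Eed* KO lists alone 13.3% against 19.8%. Regions near the members were wider, and the part of width in these shares was not tested. The forkhead motif TGTTTAC was in 29 of the 195 regions (14.9%) and in 12.4% of all.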
